A study of Mus musculus with 14 samples.

Results

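The genes described are 10 members of bone morphogenetic protein (BMP) signaling and its Id targets, chosen by name out of 36118 genes in the deposited table. They are the ligands Bmp4 and Bmp6, the type I receptor gene Bmpr1b, the inhibitory SMAD genes Smad6 and Smad7, the receptor-regulated SMAD gene Smad9, and Id1, Id2, Id3 and Id4. Hippocampal polyA RNA of 14 mice was sequenced at postnatal day 15, with 1 library per mouse. Wild-type mice (WT) and mice without functional Gsdmd (KO) were kept in room air (RA) or in hyperoxia of 85% O2 (O2) from postnatal day 1 to day 14, which gave 4 WT mice in RA and 4 in O2, and 3 KO mice in RA and 3 in O2 (WT-RA, WT-O2, KO-RA, KO-O2). Gsdmd encodes gasdermin D, the pore-forming protein that executes pyroptotic cell death, and the study asked what its absence changes in the response of the newborn hippocampus to oxygen.

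All groups shared a C57/BL6 background, and WT and KO animals were littermates from matings of heterozygous parents. The KO allele was made with CRISPR/Cas9, carries a small deletion in an exon and is present in every cell type, so the design does not separate cells that lack Gsdmd from cells that respond to its loss elsewhere. The WT mice are numbered GSD398 to GSD408 and the KO mice GSD489 to GSD496, so genotype and range of mouse numbers cannot be told apart. Mouse GSD408 is a hyperoxia mouse by its title and by its column in the table but a room air mouse by its treatment entry, and it was analysed as WT-O2. The libraries summed to between 27272270 and 28257496 estimated counts. All 10 members were among the 16637 genes that passed the filter on low counts, with 53 to 2970 counts per library. Gsdmd itself, which checks the genotype labels, lay between 1.47 and 2.23 CPM (counts scaled to a common library size) in the 8 WT libraries and between 0.817 and 1.5 CPM in the 6 KO libraries, and these ranges overlap. Gsdmd was called lower in KO in O2 (log2 fold change -0.58, q = 0.0962) and not in RA (-0.46, q = 0.168). The sum over transcripts does not show which of them carry the deletion.

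BMPs are secreted ligands of the transforming growth factor beta superfamily. They assemble type I and type II receptors, whose kinase activity phosphorylates SMAD1, SMAD5 and SMAD9. These enter the nucleus with SMAD4 and act on promoters and enhancers, and the Id genes are among their best known direct targets. Id proteins carry a helix-loop-helix but no basic region, so they pair with E proteins without binding DNA and hold back neuronal and oligodendrocyte differentiation factors. SMAD6 and SMAD7 are induced by the pathway and shut it down at the receptor. In the hippocampus, BMPs and the antagonist noggin are known for setting the balance between stem cell quiescence, neurogenesis and the formation of glia.

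Proximal promoters were read from RefSeq, whose table is built on GRCm38.p6. The deposited counts were made on GRCm39, so these coordinates belong to the promoter table alone. The search covered 10 windows of 300 bases for 8 members, 3 of them for Bmpr1b. Id1 and Smad7 were not searched, so nothing is said of motifs in their promoters. The windows span the 250 bases before a transcription start and the 50 after it. The motifs searched were GTCTAGAC, the palindrome first described for SMAD binding, and GGCGCC, a GC-rich SMAD motif. Each reads the same on either strand, and they do not overlap each other. The palindrome was present in 70 of 32851 windows of that length (0.213%). Among the members searched it was present only in Smad6. Its first base there is at position -4, counted with -1 as the last base before the start. GGCGCC was present in 3898 windows (11.9%), and among the members searched in Smad9 at -51, Id2 at -231 and Id4 at -148. The stretch of Smad6 is chr9:64022045-64022074 on the minus strand. The other windows are the 250 bases before the start, chr3:54755332-54755581 on the plus strand for Smad9, chr12:25096093-25096342 on the minus strand for Id2 and chr13:48260866-48261115 on the plus strand for Id4. They are shown because these are the members whose searched windows hold a motif, with the motif in capitals. A match is a description of the letters, not evidence of binding.
Smad6: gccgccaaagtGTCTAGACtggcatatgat
Smad9: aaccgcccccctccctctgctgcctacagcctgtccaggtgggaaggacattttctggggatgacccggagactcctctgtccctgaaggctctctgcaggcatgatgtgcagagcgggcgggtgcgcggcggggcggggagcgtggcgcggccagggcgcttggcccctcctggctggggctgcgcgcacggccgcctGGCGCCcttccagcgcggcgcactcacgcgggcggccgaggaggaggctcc
Id2: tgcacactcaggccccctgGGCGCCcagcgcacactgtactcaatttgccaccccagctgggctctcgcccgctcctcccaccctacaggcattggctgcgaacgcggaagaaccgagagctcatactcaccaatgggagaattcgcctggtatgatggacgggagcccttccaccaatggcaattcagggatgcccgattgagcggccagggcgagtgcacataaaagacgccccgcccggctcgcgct
Id4: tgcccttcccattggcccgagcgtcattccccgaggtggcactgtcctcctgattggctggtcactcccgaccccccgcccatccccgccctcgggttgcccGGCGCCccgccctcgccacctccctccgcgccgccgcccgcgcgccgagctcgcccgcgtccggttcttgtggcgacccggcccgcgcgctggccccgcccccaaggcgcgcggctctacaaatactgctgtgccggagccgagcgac

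Expression of the members is given in CPM, scaled by the TMM method of edgeR, for each mouse in the order of mouse numbers. Calls came from edgeR's quasi-likelihood test and needed a log2 fold change of 0.32 or more in size, an unadjusted p under 0.05 and a q under 0.1. Here q stands for the p after Benjamini-Hochberg adjustment across all 16637 tested genes. Log2 fold changes are followed by their standard error (SE) or 95% interval. In bulk tissue, fewer cells of a type and less RNA per cell cannot be told apart.

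**Figure D1:**
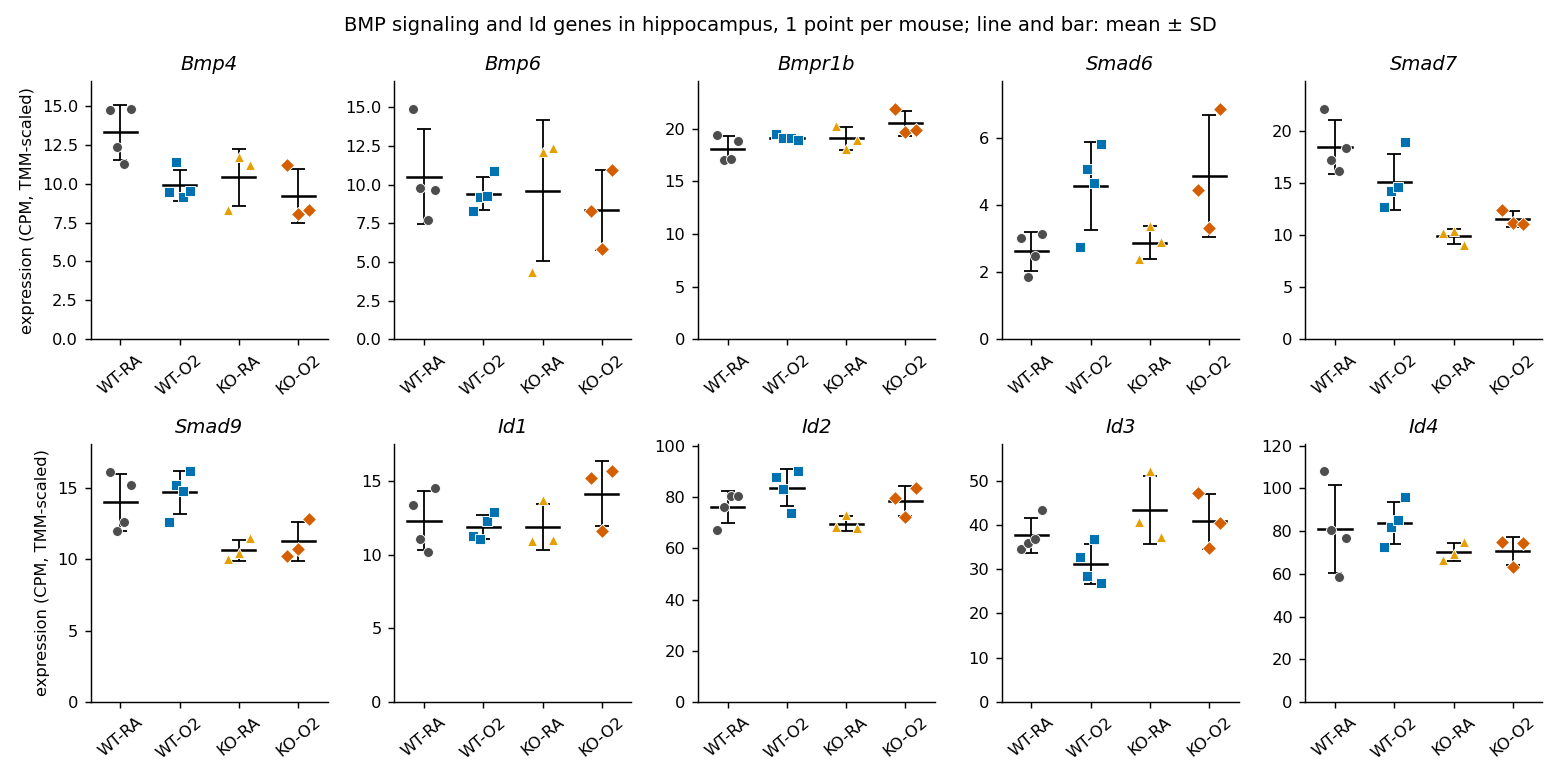
Expression of the 10 members in each library (vertical axes in CPM from 0, one panel per gene), with the WT groups left of the KO groups and RA left of O2, the horizontal line at the group mean and the bar spanning 1 SD either way. Smad7 lies at 9.07 to 12.5 CPM in the 6 KO libraries and at 12.7 to 22.2 CPM in the 8 WT libraries, while for the Id genes the groups compared with each other overlap.

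Hyperoxia moved none of the members past the call in either genotype. In WT mice, edgeR called 0 of 10 members (WT-O2 vs WT-RA), where 0.643% of all genes tested were called. At an unadjusted p below 0.05 there were 4 members, Bmp4, Smad6, Smad7 and Id3, beside 12.2% of all genes. DESeq2 called 2 members, Bmp4 (q = 0.095) and Smad6 (q = 0.0745), and also called more of all genes than edgeR did. In KO mice, edgeR called 0 of 10 members (KO-O2 vs KO-RA), against 0.012% of all genes. There 1 member had an unadjusted p below 0.05, beside 4.86% of all genes. DESeq2 called 0 members and 13 of all genes, where edgeR called 2. The median log2 fold change over the members was 0.0015 in WT and 0.0932 in KO, beside -0.0058 and -0.002 over all genes.

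Among the ligands, Bmp4 is made in the postnatal brain largely by cells of the oligodendrocyte lineage. Its expression was 14.7, 12.4, 11.3 and 14.8 CPM in the WT-RA mice and 9.45, 11.4, 9.17 and 9.5 CPM in the WT-O2 mice. The KO-RA mice had 8.32, 11.7 and 11.2 CPM, and the KO-O2 mice 11.2, 8.07 and 8.33 CPM. Every WT-O2 mouse except GSD405 lay below every WT-RA mouse. The log2 fold change of Bmp4 in WT-O2 vs WT-RA was -0.43 (SE 0.14, q = 0.219), which is not a call. In KO-RA vs WT-RA the difference was -0.35 (95% interval -0.67 to -0.03, q = 0.165). That difference is called when WT-RA mouse GSD400 is left out (log2 fold change -0.42, q = 0.0968). In KO the means of RA and O2 were 10.4 ± 1.83 and 9.2 ± 1.74 CPM (SD, n = 3 each).

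Bmp4 levels stood beside a wide range of myelin gene expression. The summed CPM of 6 oligodendrocyte markers ran from 7683 to 19190 in WT-RA, 4811 to 12780 in WT-O2, 3304 to 5320 in KO-RA and 3270 to 5758 in KO-O2. Of these 6 markers, 6 were called lower in KO in RA and 4 in O2, and 0 were called between exposures. Of all genes, 6.7% were called lower in KO in RA and 4.35% in O2. Between exposures 0.643% were called in WT and 0.012% in KO. Mbp, which encodes myelin basic protein, differed by -1.55 on the log2 scale in RA and by -1.02 in O2. Within WT-RA the mice with the most marker RNA, GSD398 and GSD401, also had the most Bmp4. Within WT-O2 this was not so, since GSD408 and GSD406 had the most marker RNA (12780 and 10180 summed CPM) and 9.5 and 9.17 CPM of Bmp4, and GSD405, with the most Bmp4, had 7671. Within KO-RA, GSD489 had the least of both (3304 summed CPM, 8.32 CPM of Bmp4). GSD490 and GSD496 had 5111 and 5320 summed CPM and 11.7 and 11.2 CPM of Bmp4. Within KO-O2, GSD494, GSD495 and GSD491 had 3270, 3713 and 5758 summed CPM and 8.07, 8.33 and 11.2 CPM of Bmp4. The part of these cells in the Bmp4 values was not tested.

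Bmp6, a ligand of the same receptors, varied more between mice of a group than between groups. The WT-RA mice had 14.9, 9.76, 7.74 and 9.65 CPM and the WT-O2 mice 8.28, 9.21, 9.28 and 10.9 CPM. In KO-RA the values were 4.35, 12.1 and 12.4 CPM, and in KO-O2 8.31, 5.83 and 10.9 CPM. No comparison called it, with log2 fold changes from -0.20 to -0.13 and SEs of 0.28 to 0.33 in the 4 comparisons of single groups. The lowest values were those of KO-RA mouse GSD489 and KO-O2 mouse GSD494. The same 2 libraries held the least RNA of the choroid plexus, the secretory epithelium of the ventricles. The summed CPM of its 6 markers was 29.1 in GSD489 and 98.7 in GSD494, against 1703 to 3401 in the other KO libraries and 920.5 to 2402 in the WT libraries. Among its markers Ttr, which encodes transthyretin, was at 26.7 and 92 CPM in these libraries and Kcnj13 at 0.223 and 0.624 CPM. None of the 6 markers was called in any comparison by edgeR. Without these 2 libraries, the log2 fold change of Bmp6 in KO-RA vs WT-RA was 0.23 in place of -0.13, and with a choroid plexus score as covariate it was 0.0048. The part of choroid plexus tissue in the Bmp6 values was not tested beyond this.

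**Figure D2:**
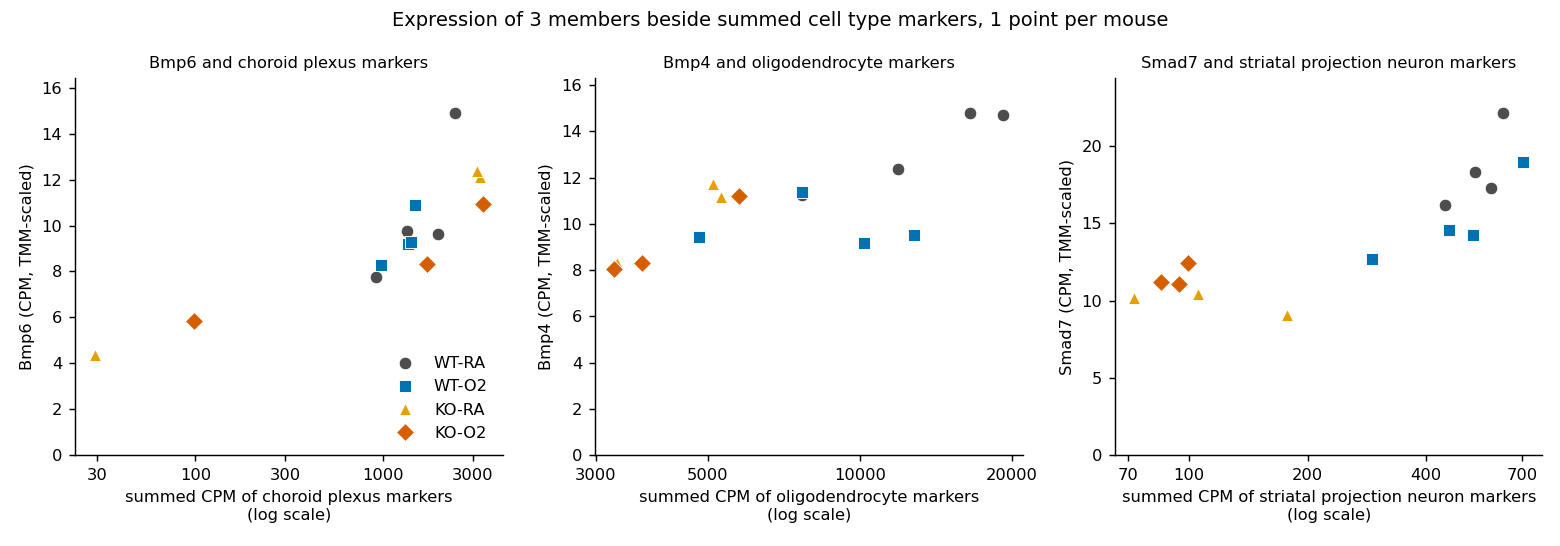
Expression of Bmp6, Bmp4 and Smad7 (vertical axes, CPM) against the summed CPM of the choroid plexus, oligodendrocyte and striatal projection neuron markers (horizontal axes, log scale), with 1 point per mouse and a symbol for each group. The 2 libraries with 29.1 and 98.7 summed CPM of choroid plexus markers have the lowest Bmp6, at 4.35 and 5.83 CPM, and the KO libraries lie at 72.6 to 177 summed CPM of striatal markers, below all WT libraries.

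The type I receptor gene Bmpr1b had the narrowest spread of the members. It was expressed at 19.4, 17, 17.1 and 18.8 CPM in WT-RA, 19.5, 19.1, 19.1 and 18.9 CPM in WT-O2, 20.3, 18.1 and 18.9 CPM in KO-RA, and 21.9, 19.7 and 19.9 CPM in KO-O2. Every KO-O2 mouse lay above every WT-O2 mouse, and 19% of all genes had no overlap between these groups. The difference was 0.10 on the log2 scale (95% interval -0.05 to 0.25), and the other differences between single groups were between 0.08 and 0.10. The upper bounds of the oxygen differences were 0.22 in WT and 0.27 in KO, both under the 0.32 that a call needs.

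Smad6, an inhibitory SMAD induced by BMP and by flow in endothelium, had the largest difference with hyperoxia of the members. It was at 3.02, 1.87, 2.47 and 3.12 CPM in WT-RA and at 2.75, 5.05, 4.64 and 5.82 CPM in WT-O2. In KO-RA it was at 2.38, 3.36 and 2.88 CPM and in KO-O2 at 4.44, 3.3 and 6.86 CPM. In each genotype all but 1 of the O2 mice, GSD404 in WT and GSD494 in KO, lay above every RA mouse. The log2 fold change was 0.80 in WT (SE 0.26, q = 0.215) and 0.76 in KO (SE 0.29, q = 0.997), and neither passed the call. With mouse GSD408 taken as room air, as its treatment entry has it, the WT difference was 0.35. Smad6 did not differ detectably between genotypes, with 0.13 in RA (95% interval -0.47 to 0.74) and 0.09 in O2 (-0.48 to 0.66). Brain endothelial markers gave no call among 7 between exposures or genotypes. Their summed CPM was 210.4 to 245.2 in WT-RA, 206 to 250 in WT-O2, 199.7 to 220.5 in KO-RA and 172 to 245 in KO-O2. The part of endothelium in the Smad6 values was not tested.

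Smad7, the inhibitory SMAD that restrains both BMP and TGF-beta receptors, was lower in KO than in WT mice. WT-RA mice had 22.2, 17.3, 16.2 and 18.3 CPM, and KO-RA mice had 10.2, 10.4 and 9.07 CPM. WT-O2 mice had 12.7, 14.3, 14.6 and 19 CPM, and KO-O2 mice had 12.5, 11.2 and 11.1 CPM. No KO library overlapped a WT library of either exposure, which held for 5.9% of all genes. In KO-RA vs WT-RA, Smad7 fell, with a log2 fold change of -0.90 (SE 0.14, q = 0.000978). In KO-O2 vs WT-O2 it was -0.39 (SE 0.13, q = 0.116), just outside the call, with DESeq2 calling it (q = 0.0835), as did edgeR without WT-RA mouse GSD398 (q = 0.073) or WT-O2 mouse GSD404 (q = 0.0588). Averaged over exposure the log2 fold change was -0.64 (SE 0.10, q = 0.000319).

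With oxygen, the differences of Smad7 had opposite signs in the genotypes, and neither was called. It was 18.5 ± 2.61 CPM in WT-RA and 15.1 ± 2.69 CPM in WT-O2 (SD, n = 4 each), a log2 fold change of -0.29 (SE 0.12, q = 0.353). In KO it was 9.89 ± 0.719 CPM in RA and 11.6 ± 0.773 CPM in O2 (SD, n = 3 each), a log2 fold change of 0.23 (SE 0.14, q = 0.997). The KO groups did not overlap, as was the case for 11.8% of all genes. The interaction of genotype and exposure was 0.51 (95% interval 0.11 to 0.92), with an unadjusted p of 0.0161 and a q of 0.9999, so that the difference between these responses did not hold over all genes. Smad7 was the 1 member with an unadjusted p below 0.05 for the interaction. Of the members 0 were called by edgeR and 0 by DESeq2, and of all genes 0% were called, while 673 genes (4.05%) had an unadjusted p below 0.05.

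Smad9, the receptor-regulated SMAD also known as SMAD8, was also lower in KO. It was at 16.2, 12, 12.6 and 15.2 CPM in WT-RA and at 12.6, 15.2, 14.8 and 16.2 CPM in WT-O2. The KO-RA mice had 9.99, 10.5 and 11.5 CPM and the KO-O2 mice 10.2, 10.8 and 12.8 CPM. The RA groups did not overlap, as was the case for 19.6% of all genes. In O2 only KO-O2 mouse GSD495 exceeded the lowest WT-O2 mouse, GSD404. The log2 fold change was -0.40 in KO-RA vs WT-RA (SE 0.12, q = 0.0558), -0.38 in KO-O2 vs WT-O2 (SE 0.12, q = 0.0861) and -0.39 averaged over exposure (SE 0.09, q = 0.00565). Oxygen differences were 0.07 in WT and 0.08 in KO. The call in RA is lost without WT-RA mouse GSD398 (q = 0.139) or GSD401 (q = 0.126), or KO-RA mouse GSD489 (q = 0.188) or GSD490 (q = 0.147). The call in O2 is lost without WT-O2 mouse GSD405 (q = 0.171), GSD406 (q = 0.167) or GSD408 (q = 0.224), KO-O2 mouse GSD491 (q = 0.262) or GSD494 (q = 0.231), or KO-RA mouse GSD490 (q = 0.11) or GSD496 (q = 0.112). The RA call of Smad9 was also lost in a fit of the compared groups only (q = 0.107). Without both choroid-poor libraries, GSD489 and GSD494, its q in RA was 0.211 and in O2 0.252. The O2 call was also lost without the filter on low counts (q = 0.114) and with GSD408 as room air (q = 0.22). With a choroid plexus score as covariate its q in O2 was 0.1, which is not a call. The averaged call held without any 1 library.

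In all, 2 of 10 members were called in KO-RA vs WT-RA, both lower, against 10.4% of all genes called, 3.75% higher and 6.7% lower. In KO-O2 vs WT-O2, 1 member was called, lower, against 6.86% of all genes, 2.51% higher and 4.35% lower. Averaged over exposure, 2 members were called, both lower, against 12% of all genes, 4.11% higher and 7.94% lower. The median log2 fold change of the members was -0.13 in RA, -0.10 in O2 and -0.13 in the average, beside -0.0067, -0.0089 and -0.0076 over all genes.

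**Figure D3:**
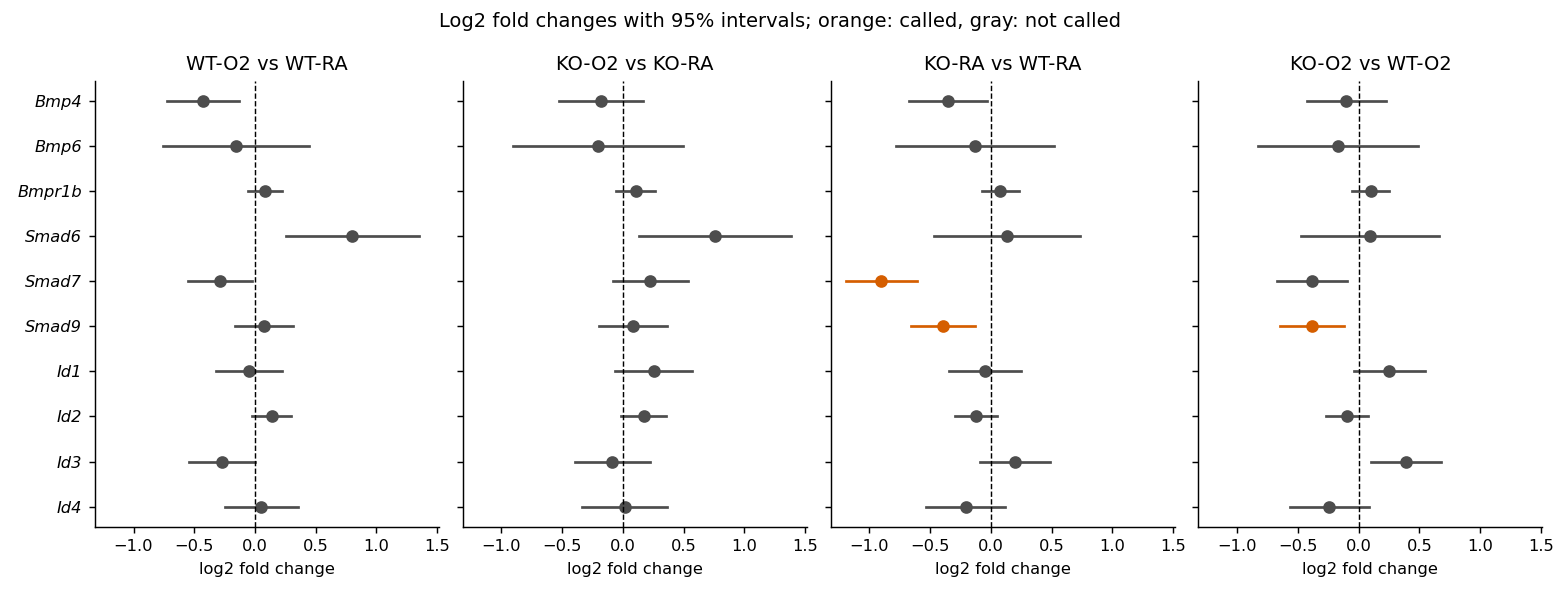
Log2 fold changes of the 10 members (points) with 95% intervals (lines) in the comparisons between single groups, one panel each, with called members in orange. Smad7 and Smad9 are called in KO-RA vs WT-RA, at -0.90 and -0.40, Smad9 in KO-O2 vs WT-O2, at -0.38, and no member between exposures.

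Markers of other brain regions and cell types moved with genotype. Beside each count below, 3.75% of all genes were called higher and 6.7% lower in KO in RA. In O2 these shares were 2.51% and 4.35%. All 8 markers of striatal projection neurons were called lower in KO in each exposure, with Drd1, a dopamine receptor gene, at -2.70 in RA and -2.67 in O2 on the log2 scale. Their summed CPM was 445.7 to 627.8 in WT-RA, 290.9 to 704.9 in WT-O2, 72.6 to 177 in KO-RA and 85 to 99.4 in KO-O2. Of 8 markers of thalamic neurons 5 were called lower in each exposure, with summed CPM of 126.7 to 780.3 in WT-RA, 258.3 to 599 in WT-O2, 159.8 to 171.5 in KO-RA and 161.1 to 176.1 in KO-O2, and of these markers Gbx2 was at 0 in KO-RA mouse GSD496. Of 8 markers of hippocampal principal neurons 8 were called higher in KO-RA and 6 in KO-O2, with summed CPM of 609.4 to 859.6 in WT-RA, 787.7 to 982.6 in WT-O2, 1252 to 1550 in KO-RA and 1286 to 1506 in KO-O2. Of 7 markers of deep-layer cortical neurons 5 were called lower in KO in RA and 3 in O2, with summed CPM of 187.5 to 408.8 in WT-RA, 202.1 to 227 in WT-O2, 163.9 to 190.4 in KO-RA and 162.3 to 191.1 in KO-O2. Of 7 astrocyte markers 2 were called higher in KO in each exposure, with summed CPM of 3794 to 4381 in WT and 4473 to 5225 in KO. Of 6 markers of GABAergic interneurons 2 were called lower in RA and 1 in O2, of 6 of progenitors and proliferation 1 was called higher in each exposure, of 6 of meninges and fibroblasts 2 were called higher in RA, and of 5 of oligodendrocyte precursors, a list that holds Bmp4 itself, 1 was called lower in RA. Of 6 mural and 6 microglial markers 0 were called between genotypes in either exposure. With scores of the striatal and thalamic markers in the model as covariates, 0 members were called in any genotype comparison, Smad7 was at -0.50 in RA (q = 0.638) and -0.22 in the average (q = 0.873), and Smad9 was at 0.11 in RA, 0.16 in O2 and 0.13 in the average. Few genes of any kind were called in that fit, 17 in RA, 1 in O2 and 15 in the average. The striatal sums of KO and WT libraries do not overlap, and the part of tissue from other regions in the differences of Smad7 and Smad9 was not tested beyond this.

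None of the 4 Id genes, whose products sequester E proteins, was called in any comparison. Id1 is made mainly by endothelium, astrocytes and neural stem cells. Its expression was 13.4, 11.1, 10.2 and 14.5 CPM in WT-RA, 11.3, 11.1, 12.3 and 12.9 CPM in WT-O2, 10.9, 13.7 and 11 CPM in KO-RA, and 15.2, 11.6 and 15.6 CPM in KO-O2. All groups overlapped, and its largest log2 fold changes were 0.25 in KO-O2 vs KO-RA (95% interval -0.06 to 0.57) and 0.25 in KO-O2 vs WT-O2 (-0.04 to 0.55).

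Id2, which is also expressed in neurons, was at 67.1, 76.3, 80.6 and 80.4 CPM in WT-RA, 87.9, 83.1, 74 and 90.1 CPM in WT-O2, 68.3, 73.1 and 67.8 CPM in KO-RA, and 79.6, 72.2 and 83.8 CPM in KO-O2. The mean was higher in O2 than in RA in each genotype, by 0.14 in WT (95% interval -0.02 to 0.30) and 0.17 in KO (-0.01 to 0.36) on the log2 scale, with overlap in both. These intervals include 0.

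Id3, which often acts with Id1, was at 34.5, 36, 36.8 and 43.3 CPM in WT-RA and at 32.7, 28.4, 36.8 and 26.8 CPM in WT-O2. The KO-RA mice had 40.6, 52.1 and 37.4 CPM, and the KO-O2 mice 47.1, 34.8 and 40.4 CPM. It came closest to a call of the Id genes. The log2 fold change was 0.39 in KO-O2 vs WT-O2 (SE 0.14, q = 0.118) and 0.30 averaged over exposure (SE 0.10, q = 0.0439), where it passed the q but not the 0.32 of the call. In O2 it is called by DESeq2 (log2 fold change 0.40, q = 0.0517) and with the compared groups only (q = 0.0818). Without the filter on low counts its q in O2 was 0.0823, and with at least 10 counts in every library 0.0984. With a choroid plexus score as covariate it was 0.0985 and without both choroid-poor libraries 0.0951, each a call. With WT-RA mouse GSD398 left out its q in O2 was 0.0965, with GSD401 0.0972, with WT-O2 mouse GSD406 0.0672, with KO-RA mouse GSD490 0.0894 and with KO-O2 mouse GSD494 0.0859, each a call. In the average it is called without GSD401, GSD406, GSD494 or KO-RA mouse GSD496, at 0.34, 0.35, 0.35 and 0.35 on the log2 scale. In WT-O2 vs WT-RA it was at -0.27 (q = 0.405).

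Id4, which is known in neural precursors and astrocytes, was at 108, 80.4, 58.3 and 77 CPM in WT-RA, 72.4, 82, 85.2 and 95.9 CPM in WT-O2, 66.6, 69.1 and 74.8 CPM in KO-RA, and 75, 63.2 and 74.3 CPM in KO-O2. WT-RA spanned the values of all other groups. The means were 81 ± 20.5 and 83.9 ± 9.67 CPM in WT-RA and WT-O2 (SD, n = 4 each) and 70.2 ± 4.19 and 70.8 ± 6.61 CPM in KO-RA and KO-O2 (SD, n = 3 each). The averaged genotype difference was -0.23 on the log2 scale (95% interval -0.45 to 0.00).

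Between mice of one group, the members were compared as deviations of log2 CPM from the group mean over 14 libraries. Pearson's r over the 45 pairs ran from -0.363 to 0.834 with a median of 0.329. Of 45 pairs 0 had an adjusted p below 0.05 for r in a two-sided permutation test of 100000 draws within groups. Smad6 and Smad9 had the highest r, 0.834 (p = 0.00295, adjusted p = 0.0664), with a Spearman rho of 0.842 (p = 0.00372, adjusted p = 0.0743). For Bmp6 and Id4, r was 0.635 (p = 0.00129, adjusted p = 0.058) and rho was 0.859 (p = 0.00013, adjusted p = 0.00585) in the same permutation test. Without the 2 libraries farthest from the median of the first gene of the pair, r was 0.84 for Smad6 and Smad9 and 0.702 for Bmp6 and Id4. Both values of a point come from the same library.

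The rest of the pathway was examined in 7 gene lists. Hyperoxia in WT called 2 genes among them and 0 members, where 0.643% of all genes tested were called. Acvr2a, a type II receptor gene, rose from 48.1, 53.9, 51 and 70.2 CPM in WT-RA to 79.7, 90.8, 79.7 and 68.6 CPM in WT-O2 (log2 fold change 0.51, q = 0.0878). Tob1, whose product binds SMADs and restrains growth, fell from 44.3, 40.9, 35.1 and 41.5 to 22.9, 26.5, 31.1 and 28.2 CPM (log2 fold change -0.58, q = 0.0417). With mouse GSD408 as room air neither was called, with q of 0.171 for Acvr2a and 0.241 for Tob1. Tob1 was also not called without WT-RA mouse GSD399 (q = 0.111) or WT-O2 mouse GSD405 (q = 0.171), and for Acvr2a this held for 11 of the 14 libraries left out in turn, with q from 0.102 to 0.293. In KO-O2 vs KO-RA, 0 genes of the lists were called.

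With genotype, antagonists moved in both directions. Of 18 antagonists and modulators tested, 4 were higher and 3 lower in KO-RA, and 2 were higher and 3 lower in KO-O2. Beside this and each list below, 3.75% of all genes were called higher and 6.7% lower in KO-RA. In KO-O2 these shares were 2.51% and 4.35%. Nog, which encodes the BMP antagonist noggin, fell from 8.7 ± 1.01 CPM in WT-RA to 5.15 ± 0.669 in KO-RA and from 8.25 ± 1.11 in WT-O2 to 4.79 ± 0.267 CPM in KO-O2 (SD, n = 4 WT and 3 KO). Its log2 fold changes were -0.75 (q = 0.00316) and -0.78 (q = 0.00392). Chrd, which encodes the antagonist chordin, rose from 18 ± 1 to 27.8 ± 0.494 CPM in RA and from 17.7 ± 2.47 to 29.3 ± 6.29 CPM in O2, with log2 fold changes of 0.63 and 0.73. Nbl1, an antagonist of the DAN family, rose by 0.44 and 0.52. For these 3 genes no KO library overlapped a WT library, which held for 5.9% of all genes. Tll2, a tolloid family protease gene, was lower in KO-RA (-0.90, q = 0.0923), and Grem1, a secreted BMP antagonist gene, was higher (0.63, q = 0.0697). Leaving out any of 8 libraries for Tll2 (q up to 0.332) or 4 for Grem1 (q up to 0.265) lost the call. The list's median log2 fold change was 0.03 in RA and 0.05 in O2.

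Of 8 other ligands tested, 2 were lower in KO-RA and 1 in KO-O2. Bmp2 fell from 4.62, 6.48, 6.57 and 6.13 CPM in WT-RA to 1.97, 2.8 and 1.92 CPM in KO-RA, a log2 fold change of -1.41 (SE 0.18, q = 0.000293). In O2 it fell from 4.51, 5.05, 4.89 and 3.82 to 1.97, 2.49 and 2.51 CPM, a log2 fold change of -0.97 (SE 0.18, q = 0.00491). All KO values lay below all WT values, and 5.9% of all genes had no overlap between KO and WT libraries. Bmp3 fell by 1.02 on the log2 scale in RA (q = 0.0238). Its WT-RA value in mouse GSD398 was 8.47 CPM, below all 3 KO-RA mice, beside 22.4, 24.4 and 22.9 CPM in the other WT-RA mice. Bmp7, which shares receptors with Bmp6, was not called.

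**Figure D4:**
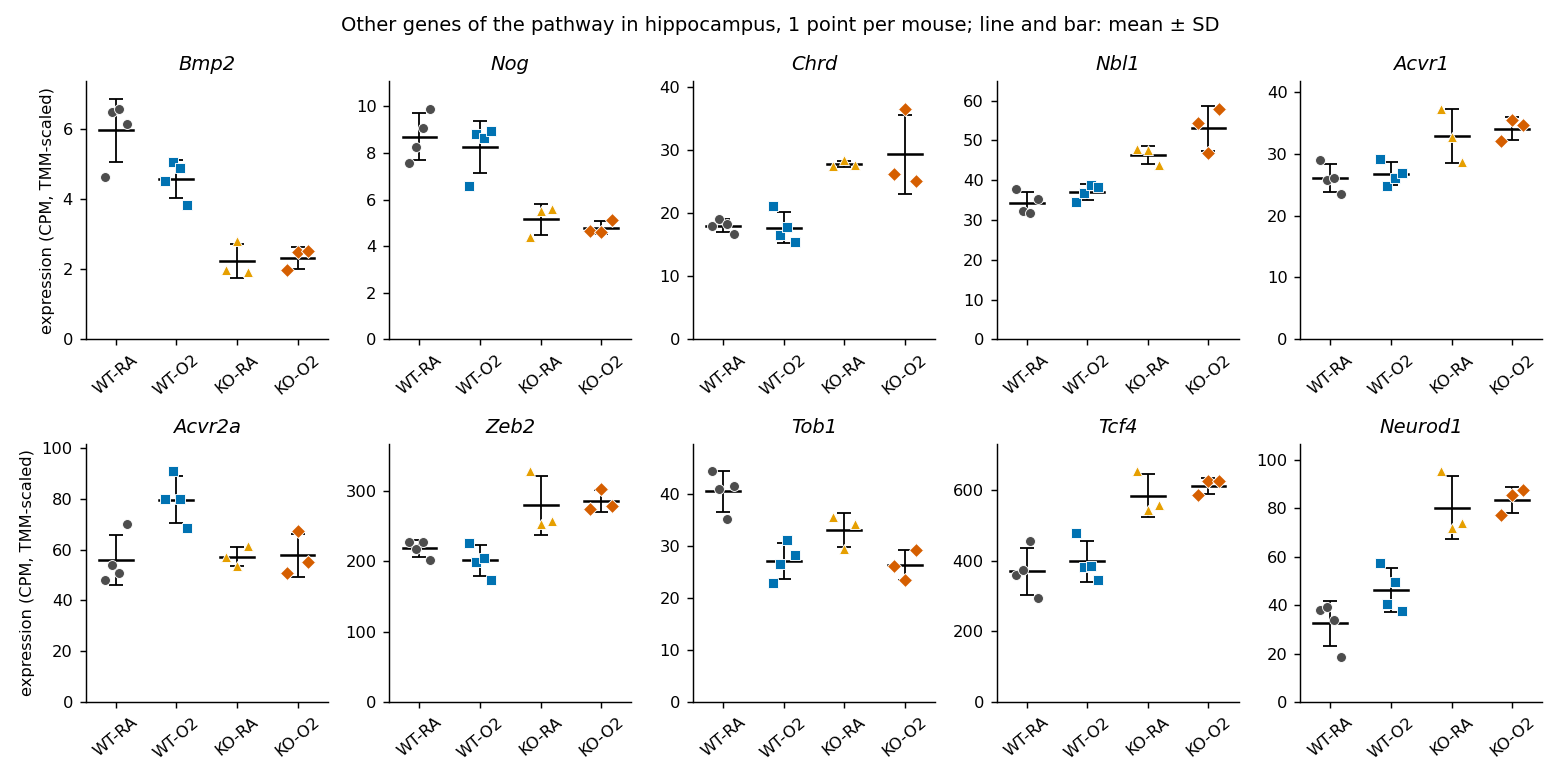
Expression of 10 other genes of the pathway in each library (vertical axes in CPM from 0), with groups, means and SD bars as for the members. Bmp2 and Nog are lower and Chrd, Nbl1, Tcf4 and Neurod1 higher in every KO library than in every WT library, while Acvr2a and Tob1 differ between WT-RA and WT-O2. Over all genes, 5.9% have no overlap between KO and WT libraries.

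Among 11 receptors and co-receptors tested, Acvr1, the type I receptor gene also known as ALK2, rose in KO by 0.33 in RA and 0.35 in O2 on the log2 scale (q = 0.0338 and 0.0375). Rgma, a co-receptor gene, was lower in KO-RA (-0.45, q = 0.00647), and Acvr2a was lower in KO in O2 (-0.46, q = 0.0489). Bmpr1a, the closest relative of Bmpr1b, had 0.19 in RA and 0.16 in O2 and was not called. Of 12 other SMADs and regulators, 1 was higher and 1 lower in KO-RA, and 1 higher and 2 lower in KO-O2. Zeb2, a SMAD-binding repressor, rose by 0.35 in RA and 0.50 in O2. Smurf1, a ubiquitin ligase that works with SMAD7, fell by 0.42 in RA (q = 0.00279). Smad1, which shares its role with Smad9, fell by 0.35 in O2 (q = 0.0537) and Zfp423, a partner of SMADs, by 0.80 (q = 0.0856). The calls of Acvr1 and Zeb2 in RA were lost without WT-RA mouse GSD401 (log2 fold changes 0.29 and 0.3205) or KO-RA mouse GSD489 (q = 0.188 and 0.18). In O2, the call of Acvr1 was lost without GSD405 (q = 0.106), GSD494 (q = 0.137) or GSD495 (q = 0.134), and that of Acvr2a without GSD405 (q = 0.129), GSD491 (q = 0.188) or GSD495 (q = 0.177). Leaving out any of 5 libraries for Smad1 (q up to 0.16) or 10 for Zfp423 (q up to 0.242) lost the call in O2.

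Of 9 E proteins and class II factors, 3 were higher and 2 lower in KO-RA, and 3 higher and 0 lower in KO-O2. Tcf4, an E protein gene that Id proteins bind, rose from 370.3 ± 66.2 to 584.4 ± 59.8 CPM in RA and from 398 ± 57.3 to 612.2 ± 23.3 CPM in O2, by 0.66 and 0.62 on the log2 scale. The proneural genes Neurod1 and Neurod2 rose by 1.31 and 0.71 in RA and by 0.85 and 0.77 in O2. Both are known in hippocampal granule and pyramidal neurons, whose markers were also higher in KO. Olig1 fell by 0.59 in RA (q = 0.0282), beside the lower oligodendrocyte markers. Of 12 other reported BMP targets, 1 was higher and 2 lower in KO-RA, and 1 higher and 2 lower in KO-O2. Runx2 rose by 0.80 in O2, and Msx2 was higher in RA (0.77, q = 0.0977). Dlx2 was lower in RA (-0.47) and Dlx5 in O2 (-0.56). Both mark GABAergic lineages. Gata3 was lower in KO, at 2 to 9 counts per KO library against 9 to 88 per WT library. Hes1 and Hey1, which BMP and Notch share, were not called. In the TGF-beta branch, 11 genes were tested, and Tgfb2 rose by 0.62 in RA and 0.40 in O2, while Tgfb3 fell by 0.41 in RA. Without KO-RA mouse GSD489 the RA calls of Olig1 (q = 0.128), Gata3 (q = 0.124) and Tgfb3 (q = 0.221) were lost. That of Tgfb3 was also lost without GSD401 (q = 0.124) or GSD496 (q = 0.107), and that of Gata3 in O2 without GSD495 (q = 0.106). Any of 13 libraries for Msx2 (q up to 0.215), 4 for Dlx2 (q up to 0.254) and, in O2, 5 for Tgfb2 (q up to 0.229) lost the call when left out.

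Of the 23 pathway genes called in KO-RA vs WT-RA, 11 kept the call in every alternative run at the thresholds of the call, other than the striatal and thalamic covariates, under which 0 were called. A fold change of 1.5 left 13 of the 23, 10 of 18 in KO-O2 vs WT-O2 and 11 of 23 in the average. The calls kept at the thresholds of the call were 11 of 18 in O2 and 18 of 23 in the average. Bmp2, Nog, Chrd, Nbl1, Tcf4, Neurod1 and Neurod2 were among those kept at these thresholds in each comparison, and Nbl1, at 0.44 to 0.52 on the log2 scale, was under a fold change of 1.5 in each. The same markers of other regions moved with these genes, and their part in the result was not tested beyond this.

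**Figure D5:**
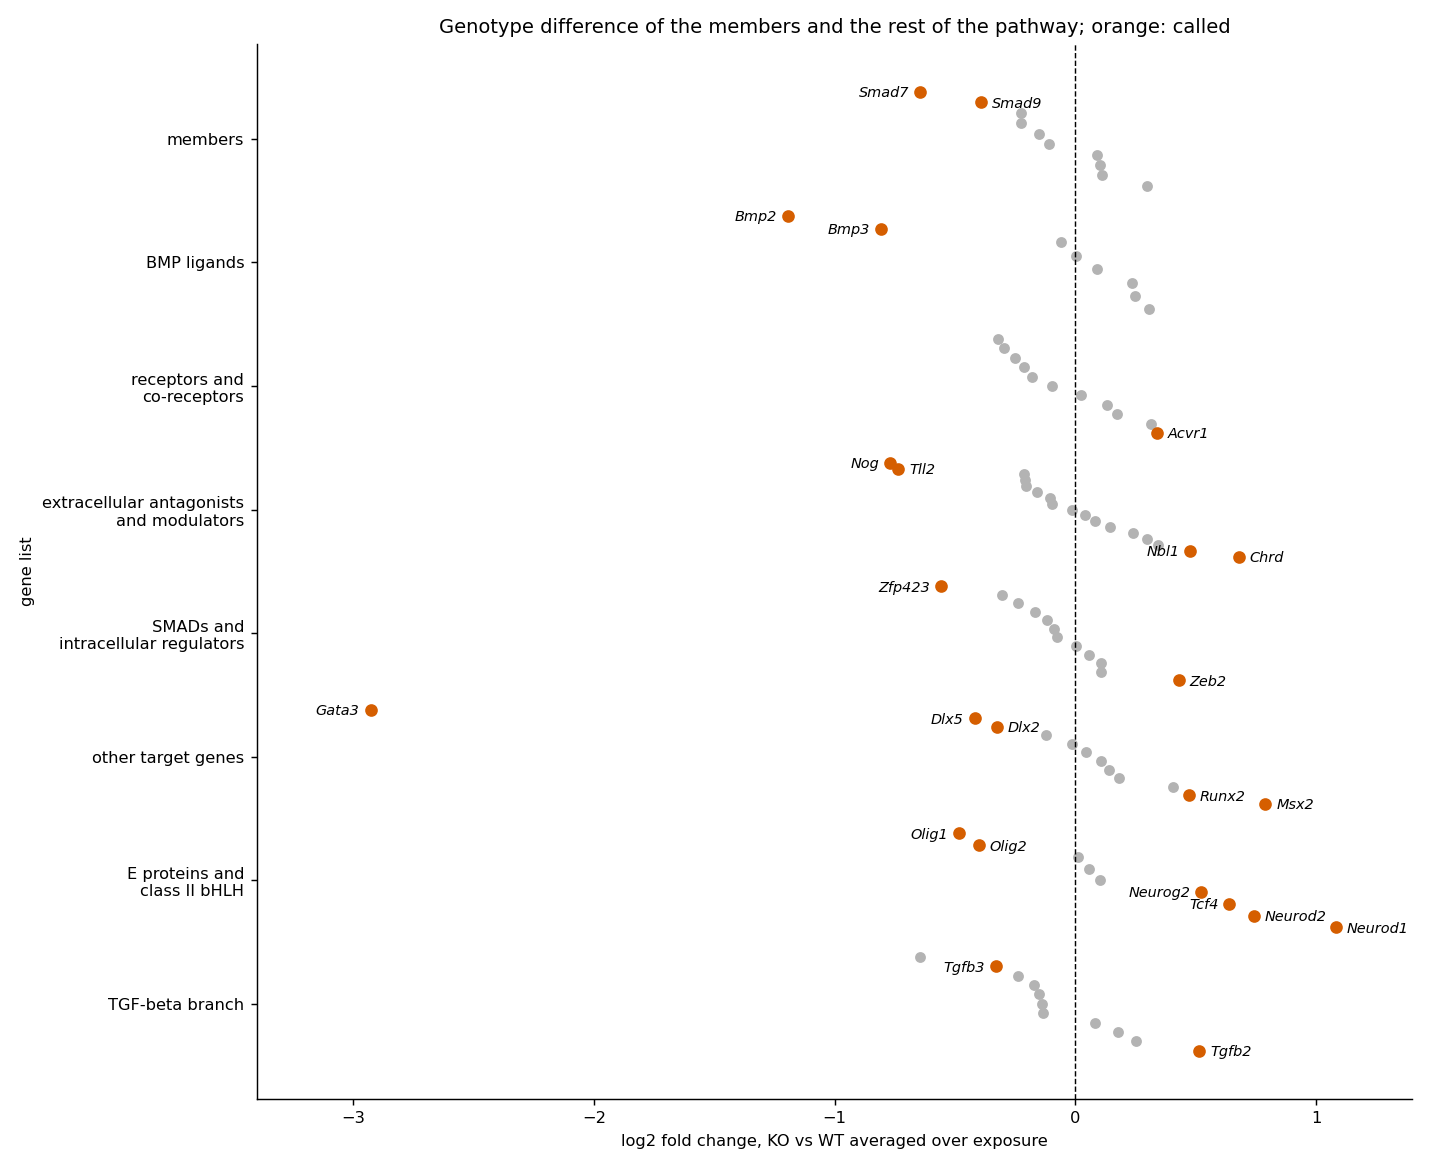
Log2 fold changes of KO vs WT averaged over exposure (horizontal axis) for the members and 7 lists of pathway genes (rows), with called genes in orange and named, and 1 gene not shown. Bmp2 at -1.19 and Nog at -0.77 lie to the left, Chrd at 0.68 and Neurod1 at 1.08 to the right, and the members' calls are Smad7 at -0.64 and Smad9 at -0.39.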

How the data were processed

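PolyA RNA of 14 hippocampi was sequenced as paired reads. The deposited values are estimated counts per gene, made by the authors with Kallisto on GRCm39 with annotation release 104 and summed with tximport. Versions and the scaling of counts in tximport are not given in the sources used here. Samples were grouped by their titles. The 10 members and the gene lists were chosen with earlier results of these data known. Of 36118 genes, 35825 were given a symbol.

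Counts were rounded and filtered with filterByExpr of edgeR 4.0.16 (R 4.3.3), which left 16637 genes, scaled by TMM and fitted over all 14 libraries with 1 coefficient per group. The contrasts were tested with the quasi-likelihood F-test and Benjamini-Hochberg adjustment over all genes, two-sided. The study used DESeq2 with the same thresholds, and DESeq2 1.42.0 was an alternative. SEs were derived from the F statistic and 95% intervals from its degrees of freedom. Within-group correlations used log2 CPM with a prior count of 2. The fit was tested on simulated data. Depth was alike in all libraries. How far low counts and the spread between mice each set the precision was not tested. Litters are not given in the sources used here.

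Named genes were the 10 members, Gsdmd, up to 4 called genes of largest absolute log2 fold change per pathway list and comparison, and the first 2 genes of a marker list. Bmp7, Bmpr1a, Hes1, Hey1 and Gbx2 were added after their values were seen. Counts over the lists include 1 gene that is not reported here. The alternatives were a fold change of 1.5, a q of 0.05, DESeq2, the compared groups only, other scalings (library size, or the size factors of DESeq2), no filter or at least 10 counts in every library, mouse GSD408 as room air, striatal and thalamic marker scores as covariates, a prior count of 0.5 for the correlations, a choroid plexus score as covariate, removal of both choroid-poor libraries, and each library left out in turn.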

Additional observations from a re-analysis of the deposited data

Results flagged for a closer look

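Bmp4 in WT-O2 mouse GSD405 was 11.4 CPM, beside 9.17 to 9.5 CPM in the other WT-O2 mice. Its gap to the nearest of them was 0.851 of the range of the group, which marks it as far from the other samples. This was 1 of 20 groups of 4 libraries tested over the 10 members, and chance marks about 1 in 20 such groups.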

How the results depend on the processing

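Of 1213 member values under alternatives, 1121 kept direction and side of the call and 50 changed sign, whether or not their call changed. With their sign kept, 19 lost the call and 23 gained it. Of 1558 pathway values, 1316 kept both, 24 changed sign, and 218 lost the call with their sign kept. Where a result changed, the cause was not tested, other than fewer samples or a stricter threshold. Scaling moved the median of all genes by at most 0.022 (log2). The choroid plexus covariate and the removal of both choroid-poor libraries were chosen after seeing the data. The members called in WT-O2 vs WT-RA were 0, and 2 with DESeq2. In KO-RA vs WT-RA the 2 became 1 at a fold change of 1.5, at a q of 0.05, with the compared groups only and without both choroid-poor libraries, 0 with striatal and thalamic covariates, and 1 to 3 with 1 library left out. In KO-O2 vs WT-O2 the 1 became 0 at a fold change of 1.5, a q of 0.05, with GSD408 as room air and with striatal and thalamic covariates, 2 with the compared groups only and with at least 10 counts in every library, 3 with DESeq2, and 0 to 3 with 1 library left out. Without the filter on low counts, with the choroid covariate and without both choroid-poor libraries, Id3 was called there in place of Smad9. In the average the 2 became 1 at a fold change of 1.5, 0 with the striatal and thalamic covariates, and 2 to 3 with 1 library left out. Pairs of members with an adjusted p below 0.05 went from 0 to 0 to 2 with 1 library left out. Changes of sign with GSD408 as room air were Smad9 -0.0226 and Id4 -0.0718 in WT-O2 vs WT-RA and Smad6 -0.18 in KO-RA vs WT-RA. With the choroid covariate they were Id4 -0.0007 in KO-O2 vs KO-RA and Bmp6 0.0048 and Id1 0.0178 in KO-RA vs WT-RA. Without both choroid-poor libraries they were Bmp6 0.23 and Id1 0.0158 in KO-RA vs WT-RA, and Bmp6 0.0382 in O2 and 0.13 in the average. Striatal and thalamic covariates gave, in KO-RA vs WT-RA, Bmp4 0.18, Bmp6 1.247, Smad9 0.11, Id1 0.0824, Id3 -0.24, Id4 0.46, Acvr1 -0.15, Zeb2 -0.23, Gata3 0.31, Tcf4 -0.0212, Neurod2 -0.11, Olig1 0.20, Olig2 0.0861 and Tgfb3 0.0076. In KO-O2 vs WT-O2 they gave Bmp4 0.44, Bmp6 1.30, Smad7 0.0651, Smad9 0.16, Id3 -0.0597, Id4 0.46, Acvr1 -0.11, Zfp423 0.23, Zeb2 -0.0786, Gata3 0.24, Tcf4 -0.0815 and Neurod2 -0.0754. In the average they gave Bmp4 0.31, Bmp6 1.28, Smad9 0.13, Id3 -0.15, Id4 0.46, Acvr1 -0.13, Zfp423 0.43, Zeb2 -0.15, Dlx2 0.0598, Gata3 0.27, Tcf4 -0.0514, Neurod2 -0.0919, Olig1 0.33, Olig2 0.16 and Tgfb3 0.10. With 1 library left out, values that changed sign ranged in WT-O2 vs WT-RA from -0.28 to 0.0621 for Bmp6, -0.13 to 0.0388 for Id1 and -0.0771 to 0.23 for Id4. In KO-O2 vs KO-RA they ranged from -0.55 to 0.0213 for Bmp6, -0.0206 to 0.14 for Smad9, -0.20 to 0.0654 for Id3 and -0.0299 to 0.0888 for Id4. In KO-RA vs WT-RA they ranged from -0.34 to 0.22 for Bmp6 and -0.16 to 0.0435 for Id1, in KO-O2 vs WT-O2 from -0.41 to 0.0307 for Bmp6 and -0.24 to 0.31 for Smad6, and in the average from -0.27 to 0.0243 for Bmp6 and -0.0517 to 0.22 for Smad6. Over all genes, a fold change of 1.5 gave 46, 942, 607 and 1011 calls in WT-O2 vs WT-RA, KO-RA vs WT-RA, KO-O2 vs WT-O2 and the average, in place of 107, 1738, 1142 and 2004, and the striatal and thalamic covariates gave 318, 17, 1 and 15. In WT-O2 vs WT-RA all-gene calls were also 22 at a q of 0.05, 310 with DESeq2, 20 with the compared groups only, 6 with GSD408 as room air and 13 to 272 with 1 library left out. In KO-O2 vs KO-RA the 2 genes became 13 with DESeq2, 4 with the compared groups only, 6 with no filter, 6 with striatal and thalamic covariates, 0 with GSD408 as room air or without both choroid-poor libraries, and 1 to 4 with 1 library left out. In KO-RA vs WT-RA there were 1059 without both choroid-poor libraries and 1076 to 1929 with 1 library left out, and in KO-O2 vs WT-O2 675 to 1335. The pathway calls, 2, 23, 18 and 23 in the same order of comparisons, became 0, 13, 10 and 11 at a fold change of 1.5 and 4, 0, 0 and 0 with the striatal and thalamic covariates, and ranged from 0 to 3, 14 to 23, 12 to 21 and 20 to 26 with 1 library left out. No paired analysis was possible because the labels number mice singly and no number is shared between groups. Depth limits Smad6 most among the members, at 53 to 183 counts per library.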
